A study of Mus musculus with 16 samples.

Results

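Integrins are the receptors by which cells hold on to the extracellular matrix, and each is built of an α chain paired with a β chain. Which chains a cell makes decides which matrix proteins it can bind, and in breast epithelium the laminin-binding integrins anchor cells to the basement membrane, while fibronectin-binding and αv integrins are best known from migrating and mesenchymal cells. Some β chains also carry a role of their own: β4 joins only α6 and links laminin to keratin filaments in hemidesmosomes, and β6 joins only αv and is largely restricted to epithelia. The expression of 10 integrin subunit genes was examined here, chosen by name as 5 α chains (Itga2, Itga3, Itga5, Itga6, Itgav) and 5 β chains (Itgb1, Itgb3, Itgb4, Itgb5, Itgb6). All of them were found among the 33072 genes of the deposited table.

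RNA was sequenced from 4T1 and 67NR, a metastatic and a non-metastatic cell line of BALB/c mice that came from the same spontaneous, triple-negative mammary tumor. Each line was treated for 24 h with 15 µM CIX, an inhibitor of the phospholipase cPLA2α, or with vehicle (DMSO), in medium with serum and at subconfluence, with 4 biological replicates per group and 16 samples in all. Each degree of metastasis is represented by a single line, so that a difference between the lines and a difference between metastatic behaviours cannot be told apart. Samples are named here by the number in their label: 3, 7, 11 and 15 are 4T1 with vehicle, 4, 8, 12 and 16 are 4T1 with CIX, 1, 5, 9 and 13 are 67NR with vehicle, and 2, 6, 10 and 14 are 67NR with CIX.

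The total estimated count per sample lay between 21715700 and 29450629 (median 23961313), and a level of 3 counts, taken as the floor of detection, corresponded to 0.108 to 0.137 CPM (counts scaled to library size). The lines stood far apart in cell type markers. Of 12 epithelial markers, 10 averaged at least 1 CPM in 4T1 with vehicle and 1 did in 67NR with vehicle, and their summed level was 3265.2 to 3523.9 CPM against 1.88 to 6.24 CPM. The label of both lines is mammary carcinoma, but Epcam (0 to 0.318 CPM) and Krt18 (0 to 1.63 CPM) were at or near 0 in 67NR. Of 10 mesenchymal markers, 8 averaged at least 1 CPM in 67NR with vehicle and 4 did in 4T1 with vehicle. The 7 immune cell markers summed to 53.1 to 89.95 CPM in 4T1 with vehicle and 7.71 to 12.1 CPM in 67NR with vehicle, nearly all of it Cd68 (51.5 to 87.8 and 7.59 to 11.8 CPM), while Adgre1 was at 0 in every sample. No sum of endothelial markers exceeded 10.06 CPM. In bulk RNA, fewer cells of a kind and less RNA per cell cannot be told apart.

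Levels of different genes were compared per transcript length, as approximate TPM (counts divided by transcript length and scaled to the same sum in each sample). Itga3, the α chain of the laminin receptor α3β1, and Itgb1, its partner and the β chain shared by most integrins, had the highest means in both lines. In 4T1 with vehicle the order was Itga3 (541.7 TPM ± 109, SD, n = 4), Itgb1 (383.8 ± 18.8), Itgb5 (176.1 ± 96.5), Itga6 (86.5 ± 8.03), Itgav (79.3 ± 14.4), Itgb4 (42.9 ± 3.64), Itga5 (23.9 ± 3.08), Itga2 (12.4 ± 4.14), Itgb6 (8.53 ± 11.6) and Itgb3 (8.27 ± 2.35). Neighbours in this order overlapped between samples except at Itgb1 over Itgb5, Itgav over Itgb4, Itgb4 over Itga5 and Itga5 over Itga2, although Itgb6 in its highest sample (24.9) reached into the range of Itga5. In 67NR with vehicle Itgb1 (300.9 TPM ± 23.3) had the highest mean, then Itga3 (224.6 ± 26.0) and Itgb5 (178.5 ± 80.0). Itgb5 overlapped both, and in sample 13 it exceeded Itgb1 (295.6 against 277.7 TPM). They were followed by Itgav (94.2 ± 1.47), Itga5 (61.8 ± 4.2), Itga6 (42.0 ± 4.73) and Itgb4 (3.54 ± 0.745), each without overlap with the next. The remaining members were near 0 in 67NR, with a mean of 0.0573 TPM for Itgb3 and less for Itga2 and Itgb6. With the longest annotated transcript in place of the mean length, the mean of Itgav in 4T1 with vehicle was 44.0 TPM and that of Itgb4 45.8, so that the order of these genes depends on the length used.

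Itga3 made up 72.5% ± 3.85 of the TPM of the 5 α chains in 4T1 with vehicle and 53.0% ± 1.98 in 67NR with vehicle, and no sample of either line reached into the range of the other. Itga5, the α chain of the fibronectin receptor α5β1, made up 3.25% ± 0.463 in 4T1 with vehicle and 4.98% ± 0.170 with CIX, against 14.65% ± 0.956 and 22.7% ± 1.64 in 67NR. Among the β chains Itgb1 held 63.1% ± 10.4 in 4T1 and 63.4% ± 10.4 in 67NR, both with vehicle. The 5 α chains summed to 1.93 ± 0.268 times Itgb1 in 4T1 with vehicle and 2.43 ± 0.280 times with CIX, and in 67NR to 1.40 ± 0.00269 and 1.79 ± 0.169 times. These are shares of transcripts, not of receptors at the surface, and β chains other than Itgb1 also pair with Itga6 and Itgav.

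**Figure D1:**
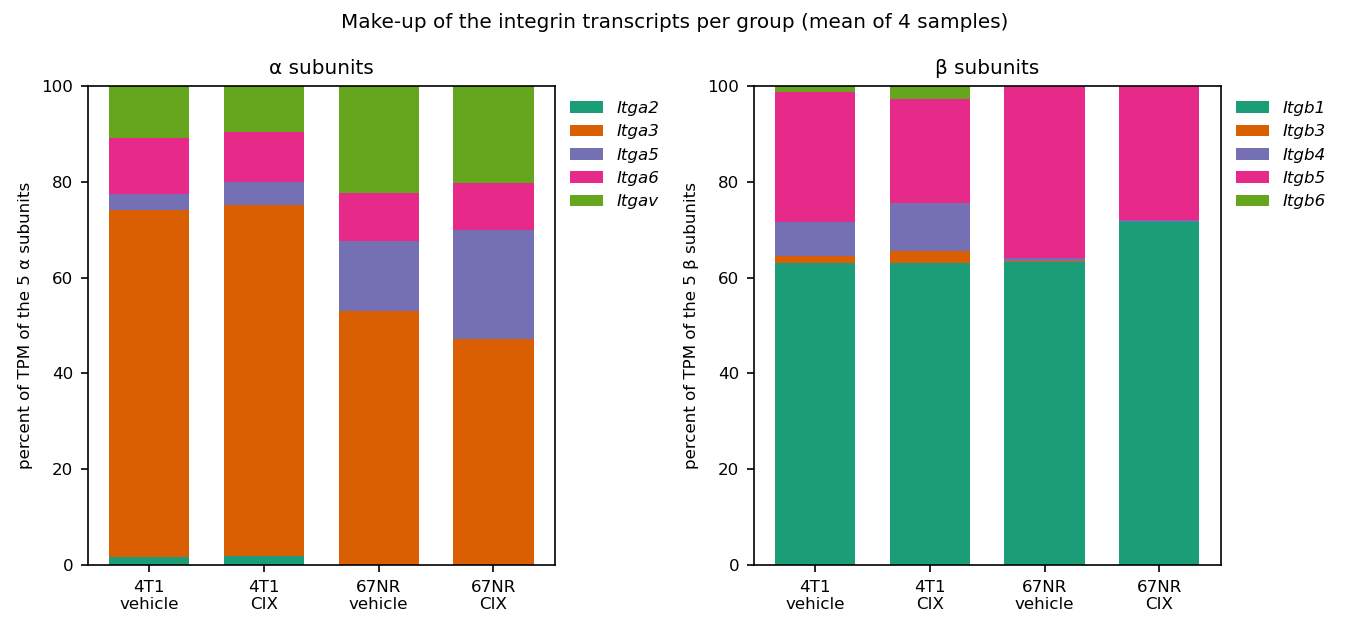
Stacked bars give the mean percent of TPM (y axis, 0 to 100) that each gene held among the 5 α chains (left) and among the 5 β chains (right) in the 4 groups on the x axis, with 4 samples each. Itga3 fills 72.5% of the α bar in 4T1 with vehicle and 53.0% in 67NR with vehicle, and the share of Itga5 in 67NR is 14.65% with vehicle and 22.7% with CIX.

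Sequences upstream of the start are shown for 3 members with unlike patterns. Itga5 was expressed in both lines and was the member called with CIX, while Itga2 and Itgb6 were near 0 in 67NR. They are 250 bases from RefSeq on GRCm38.p6, read 5′ to 3′ on the gene's strand up to the base before the start of transcription. Capitals mark matches to GGGCGG, the GC box, on either strand (CCGCCC on the other). The stretch of Itga5 lies at chr15:103366792-103367041 on the minus strand, Itga2 at chr13:114932101-114932350 on the minus strand and that of Itgb6, the first of 2 entries, at chr2:60722604-60722853 on the minus strand.
Itga5: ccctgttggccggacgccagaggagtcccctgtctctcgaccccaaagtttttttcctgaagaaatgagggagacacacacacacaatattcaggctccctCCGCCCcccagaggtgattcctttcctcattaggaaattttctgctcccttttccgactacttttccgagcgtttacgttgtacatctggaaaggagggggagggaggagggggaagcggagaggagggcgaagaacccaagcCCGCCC
Itga2: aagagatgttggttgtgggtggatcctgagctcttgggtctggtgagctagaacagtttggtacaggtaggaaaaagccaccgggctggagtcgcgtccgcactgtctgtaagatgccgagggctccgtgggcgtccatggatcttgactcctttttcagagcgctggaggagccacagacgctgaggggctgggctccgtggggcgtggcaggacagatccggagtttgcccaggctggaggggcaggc
Itgb6: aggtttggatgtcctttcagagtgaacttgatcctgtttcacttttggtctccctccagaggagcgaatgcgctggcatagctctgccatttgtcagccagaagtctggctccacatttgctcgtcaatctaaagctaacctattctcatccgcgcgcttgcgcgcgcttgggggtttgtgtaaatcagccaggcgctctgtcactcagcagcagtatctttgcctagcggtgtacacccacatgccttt

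Over the whole window of 300 bases, from 250 before to 50 after the start, Itga5 held 2 GC boxes, Itga2 held 1, just after the start, and Itgb6 held none. A GC box was found in 35.7% of 32851 RefSeq promoters of this length. None of these 3 windows held TGANTCA (the AP-1 site, in 7.81% of promoters), CAGGTG (an E-box, in 20.2%) or TATAAA (in 13.6%), all searched on both strands. GC content was 58.7% for Itga5, 59.3% for Itga2 and 50.3% for Itgb6, with a median of 52.7% over all promoters. The second entry of Itgb6, not shown, held 1 match to CAGGTG and had a GC content of 38.3%. RefSeq promoters were found for 7 of the 10 members, and Itga6, Itgb3 and Itgb4 had no entry. A match in these letters is a description of the sequence only.

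With limma-voom, CIX was compared with vehicle in each line and 4T1 with 67NR under vehicle, and an interaction term asked whether the response to CIX differed between the lines. A gene was called where its p-value, adjusted by Benjamini-Hochberg over all genes tested in the comparison, was under 0.001. To be tested, it had to be under 1 TPM in at most 3 samples of the comparison, and for the interaction in the samples of either line. The comparison of the lines shares its vehicle samples with the CIX comparisons within each line, so that their values are set side by side only. In 4T1 all 10 members were tested and 1 was called higher with CIX, Itga5, where 5.35% of all 11659 genes tested were called higher and 3.99% lower. In 3 of the 10 the CIX samples did not overlap the vehicle samples, against 39.9% of all genes, and the median log2 fold change of the members was 0.40 against -0.01 over all genes. In 67NR 7 members were tested and 0 were called, where 0.182% of 11560 genes were called higher and 0.208% lower. Here too 3 members did not overlap, against 24.0% of all genes, and the median log2 fold change was 0.12. At an unadjusted p under 0.05, 3 of the 7 members differed in 67NR by limma-voom, against 32.8% of all genes. There edgeR called 0 of them and DESeq2 called 2, Itga5 and Itgb4, against 0.398% and 9% of all genes. In 4T1 DESeq2 called 3 members, Itga5, Itgb3 and Itgb4, against 26.6% of all genes. Between the lines 7 members were tested, 3 were called higher in 4T1 and 1 lower, where 20.4% of 11040 genes were called higher and 19.6% lower. In 6 of the 7 the lines did not overlap, against 62.0% of all genes. The response to CIX differed for 1 member, Itgb4, among the 7 measured in both lines. It was more positive in 4T1, where 4.81% of 12605 genes were called more positive and 3.05% more negative. Itga2, Itgb3 and Itgb6 were too low in 67NR to be tested there or between the lines. They entered the interaction fit through 4T1 alone, and whether their responses differed could not be measured.

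**Figure D2:**
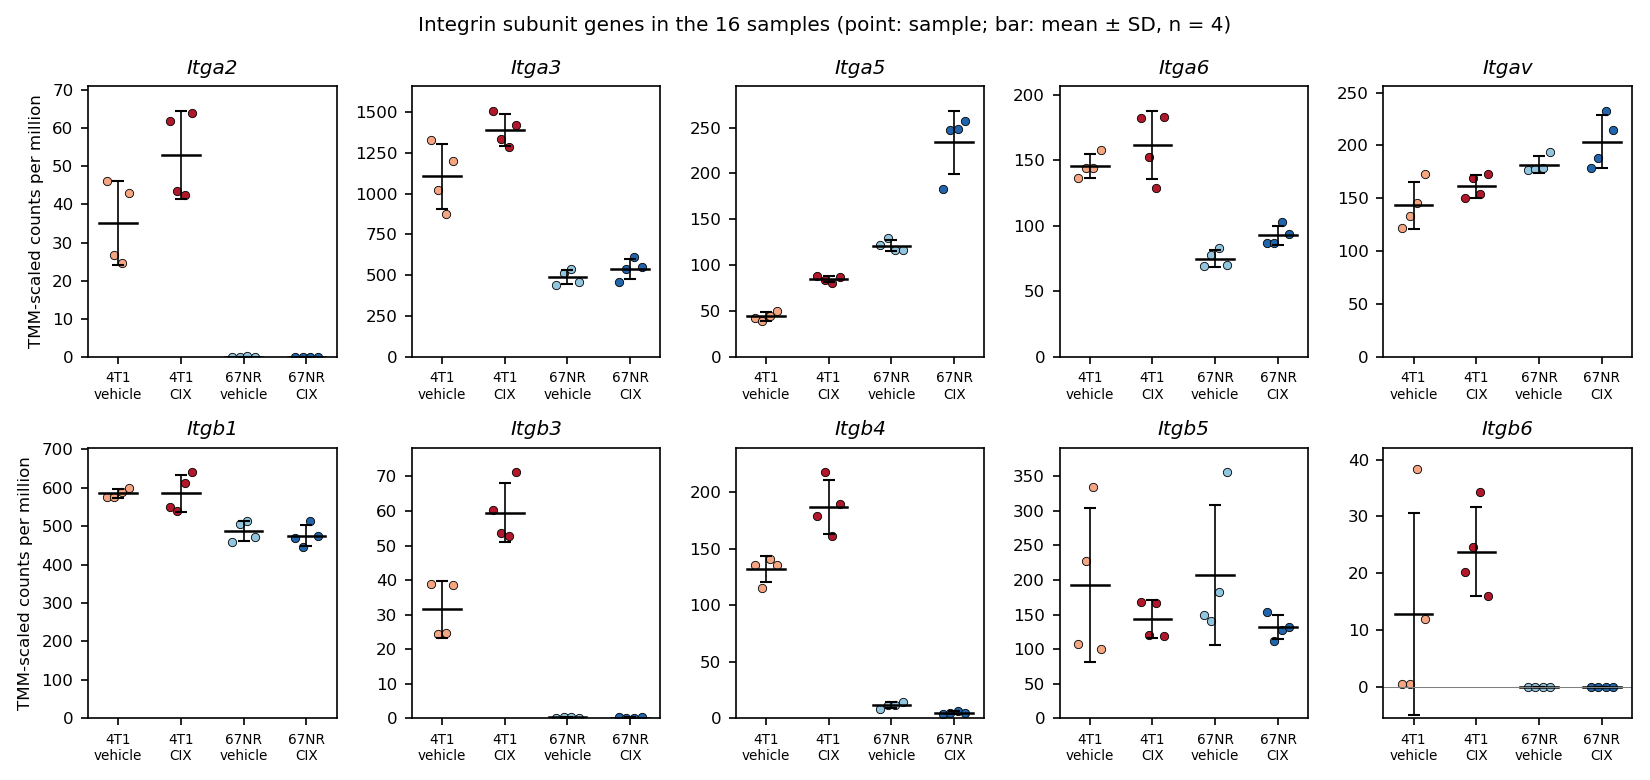
Each panel shows one gene, with TMM-scaled CPM on the y axis (linear, from 0 except where the SD reaches below it) and the 4 groups on the x axis. Points are samples, and lines give the mean and the SD of 4 samples. Itga2, Itgb3 and Itgb6 are near 0 in 67NR, Itga5 is higher with CIX in both lines, and Itgb5 and Itgb6 spread widely among the vehicle samples.

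Itga5 (chr15:103344286-103366763, minus strand, GRCm38) was higher with CIX in every sample of both lines. The fibronectin receptor α5β1, of which it is the α chain, is the main receptor by which cells assemble fibronectin fibrils. In 4T1 its level was 42.7, 38.9, 44.5 and 49.9 CPM with vehicle and 88.3, 83.7, 81.0 and 87.0 CPM with CIX. In 67NR it was 121.5, 129.2, 117 and 116.5 CPM with vehicle and 183, 247.5, 248.8 and 257.2 CPM with CIX. Every CIX sample lay above every vehicle sample of its line, and every 67NR sample lay above every 4T1 sample. The log2 fold change with CIX was 0.94 in 4T1 (SE 0.10, adjusted p = 1.79e-04), a 1.91-fold rise with a 95% confidence interval of 1.64 to 2.24. In 67NR it was 0.92 (SE 0.11, adjusted p = 0.00154), which missed the threshold. Sample 2 was the lowest of the 67NR CIX samples, and without it the log2 fold change in 67NR was 1.05 and the adjusted p was 3.04e-04. This was the 1 of 8 fits without 1 sample in which Itga5 was called in 67NR, and the adjusted p reached 0.00819 in the others. With all samples kept, DESeq2 and a fit of all 16 samples together called Itga5 in 67NR, while edgeR did not. The difference between the responses was 0.02 on the log2 scale, with a 95% confidence interval of -0.31 to 0.34 (adjusted p = 0.957), and its sign turned under other tools. Between the vehicle samples Itga5 was 2.78-fold lower in 4T1 (log2 fold change -1.47, SE 0.09, adjusted p = 1.23e-06). Without vehicle sample 7 the adjusted p for CIX in 4T1 was 0.00107, which missed the threshold.

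**Figure D3:**
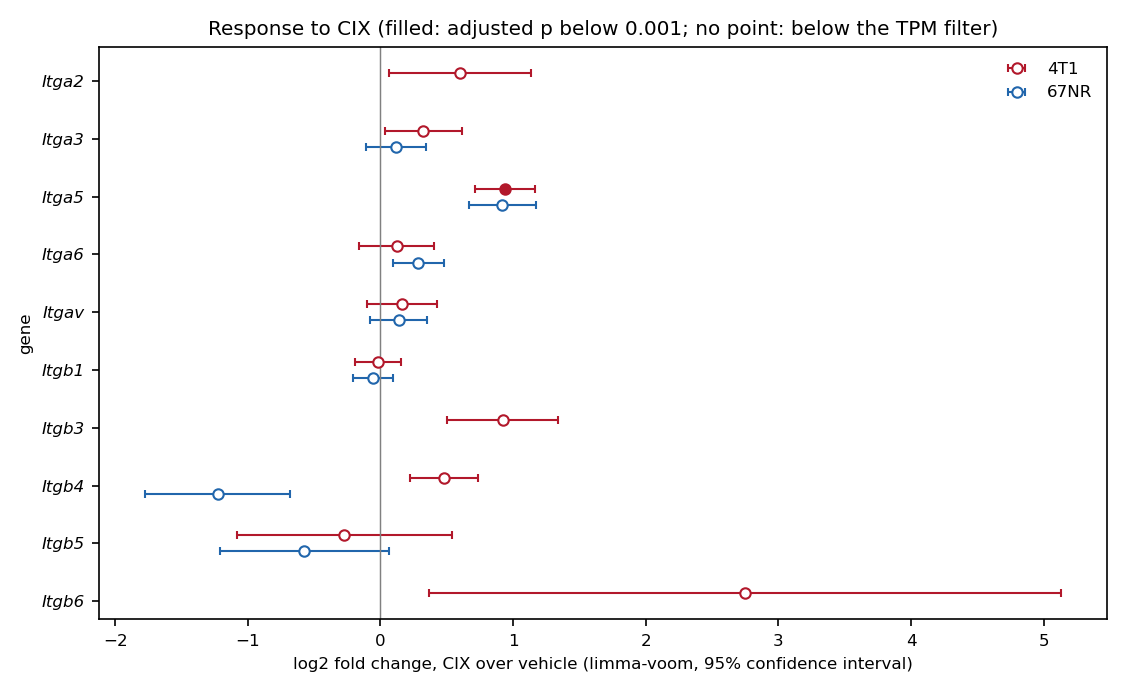
Points give the log2 fold change of CIX over vehicle (x axis) for each gene (y axis) in 4T1 (red) and 67NR (blue), with 95% confidence intervals from limma-voom. The filled point, Itga5 in 4T1, had an adjusted p below 0.001, the intervals of Itga5 in both lines lie side by side near 0.9, and those of Itgb4 lie on opposite sides of 0.

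The response of Itgb4 (chr11:115974709-116008412, plus strand, GRCm38) to CIX differed between the lines. In 4T1 it was at 135.8, 115.4, 141 and 135.1 CPM with vehicle and at 178.5, 217.5, 161.3 and 189.3 CPM with CIX. In 67NR it was at 8.26, 11.4, 11.9 and 14.8 CPM with vehicle and at 3.79, 5.09, 6.82 and 4.46 CPM with CIX. The groups did not overlap in either line, with all CIX samples above vehicle in 4T1 and below it in 67NR. The log2 fold change was 0.48 in 4T1 (SE 0.11, adjusted p = 0.00832) and -1.23 in 67NR (SE 0.24, adjusted p = 0.0105), and neither passed the threshold with limma-voom, while DESeq2 called both (adjusted p = 9.59e-04 and 1.55e-05). The difference between these responses passed with limma-voom, at 1.71 (SE 0.26, 95% confidence interval 1.15 to 2.26, adjusted p = 2.00e-04). With vehicle Itgb4 was 11.5-fold higher in 4T1 than in 67NR (log2 fold change 3.53, SE 0.17, adjusted p = 3.17e-07). The 67NR level of Itgb4 stood well above that of Epcam in the same samples (0 to 0.318 CPM), a gene at 312.3 to 319.1 CPM in 4T1 with vehicle.

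Itga6 (chr2:71745616-71858416, plus strand, GRCm38) is the chain that Itgb4 needs as a partner, although it also pairs with Itgb1. Its level was 136.3 to 158 CPM in 4T1 with vehicle and 69.1 to 83.1 CPM in 67NR with vehicle, without overlap, and was 1.93-fold higher in 4T1 (log2 fold change 0.95, SE 0.08, adjusted p = 1.02e-05). With CIX it was at 129.2 to 183.3 CPM in 4T1, which overlapped the vehicle range (log2 fold change 0.12, adjusted p = 0.459). In 67NR it was at 87.1 to 102.6 CPM with CIX, above all vehicle samples, but the log2 fold change of 0.29 (SE 0.08, adjusted p = 0.0469) missed the threshold. Per transcript length, Itgb4 reached 0.498 ± 0.0524 times Itga6 in 4T1 with vehicle and 0.642 ± 0.113 times with CIX, and these groups overlapped. In 67NR it reached 0.0851 ± 0.0216 times with vehicle and 0.0296 ± 0.00571 times with CIX, and these groups did not overlap. A share of 6.15% of the 31-base words of Itga6 transcripts also occurs in other genes, mostly in the gene Gm29397, so that a part of its reads could be assigned elsewhere.

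**Figure D4:**
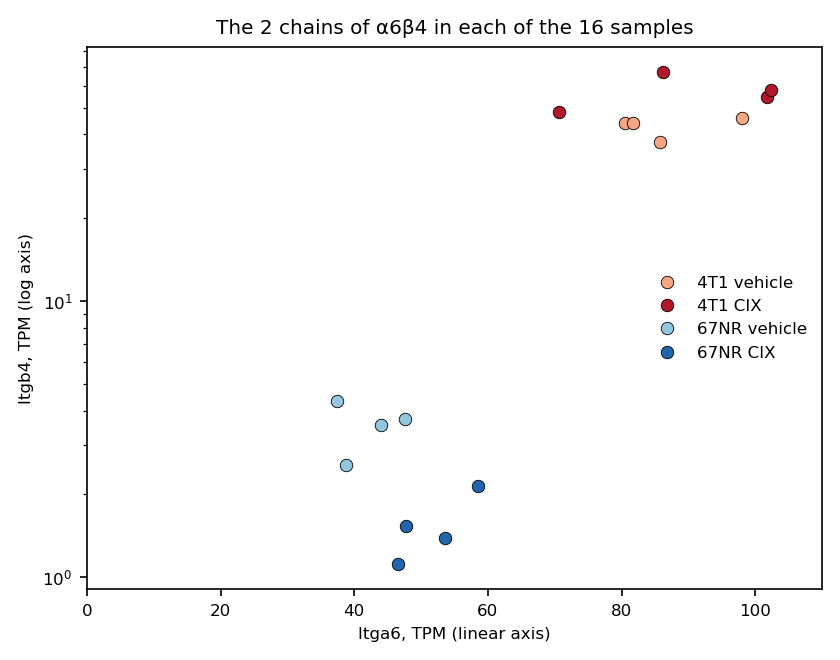
Each point is one of the 16 samples, with Itga6 on the x axis (TPM, linear) and Itgb4 on the y axis (TPM, log scale), coloured by group. The 67NR samples with CIX sit at 1.11 to 2.13 TPM on the Itgb4 axis, below those with vehicle at 2.54 to 4.33 TPM, while the groups overlap on the Itga6 axis, and all 4T1 samples lie at higher values on both axes.

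Itga3 (chr11:95044474-95076801, minus strand, GRCm38) and Itgb1 (chr8:128685654-128733200, plus strand, GRCm38) were not called with CIX in either line. Itga3 was at 1330.4, 1019.1, 874.4 and 1199.1 CPM in 4T1 with vehicle and at 442.8, 515.4, 536.5 and 457.4 CPM in 67NR with vehicle, so that every 4T1 sample was higher. The difference was 2.23-fold (log2 fold change 1.16, SE 0.14, adjusted p = 6.45e-05). With CIX Itga3 was at 1286.3 to 1507.7 CPM in 4T1 (log2 fold change 0.32, SE 0.13, adjusted p = 0.0660) and at 456.3 to 609.6 CPM in 67NR (0.12, adjusted p = 0.448). Both ranges overlapped those with vehicle, and the 95% confidence interval in 4T1 was 0.04 to 0.61. Itgb1 was at 574.8 to 599.1 CPM in 4T1 with vehicle, the smallest ratio of highest to lowest sample (1.04) among members and groups averaging at least 1 CPM, and at 457.9 to 513.2 CPM in 67NR with vehicle. The lines did not overlap, but the log2 fold change of 0.26 (SE 0.06, adjusted p = 0.00642) missed the threshold. For CIX the log2 fold change of Itgb1 was -0.02 in 4T1 (95% confidence interval -0.19 to 0.16) and -0.05 in 67NR (-0.20 to 0.09), and the former became 0.04 when no gene was left out for a low level.

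Itga2 (chr13:114833081-114932100, minus strand, GRCm38), the α chain of the collagen receptor α2β1, was measured in 4T1 and was near the floor in 67NR. In 4T1 it was at 46.3, 26.8, 24.6 and 43.1 CPM with vehicle and at 62.0, 43.6, 42.4 and 64.1 CPM with CIX. These groups overlapped, and the log2 fold change of 0.60 (SE 0.24, adjusted p = 0.0682) missed the threshold. In 67NR 2 counts were seen over the 4 vehicle samples and 2 over the 4 CIX samples, against 3349 and 5315 in 4T1. The ratio of 4T1 to 67NR was 1703.7 with vehicle, with a 95% counting interval of 471.3 to 14073.7. This interval covers counting error only, since the reads carry no molecular identifiers.

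The αv integrins bind vitronectin, fibronectin and osteopontin, and the β chain decides which. The receptor αvβ6 is also known to release active TGF-β. Itgav (chr2:83724397-83806916, plus strand, GRCm38) was at 122 to 173.3 CPM in 4T1 with vehicle and 150.6 to 172.8 CPM with CIX, and at 177.1 to 193.5 CPM and 179.1 to 233 CPM in 67NR. The lines did not overlap under vehicle, and the log2 fold change of 4T1 over 67NR was -0.36 (SE 0.11, adjusted p = 0.0163), which missed the threshold. The log2 fold change with CIX was 0.16 in 4T1 (95% confidence interval -0.10 to 0.43) and 0.14 in 67NR (-0.08 to 0.35).

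Itgb3 (chr11:104608000-104670476, plus strand, GRCm38), the β chain of αvβ3, was well above the floor in 4T1 only. Its level there was 38.7, 24.3, 24.6 and 38.6 CPM with vehicle and 60.4, 53.7, 52.7 and 71.2 CPM with CIX, without overlap. The log2 fold change was 0.92 (SE 0.19, 95% confidence interval 0.50 to 1.34), but the adjusted p of 0.00390 missed the threshold. DESeq2 (adjusted p = 7.67e-05) and a fit of all 16 samples together (adjusted p = 2.95e-04) called it, while edgeR (adjusted p = 0.00510) and each of the 8 fits without 1 sample (adjusted p 0.00352 to 0.0139) did not. A block for sets of consecutive sample numbers, added after seeing the data, also called Itgb3. In 67NR Itgb3 was at 0.0427 to 0.402 CPM in all 8 samples, with 23 counts over the vehicle and 22 over the CIX samples, and 4T1 was higher by a factor of 132.7 with vehicle (95% counting interval 88.2 to 209.6).

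Itgb6 (chr2:60598292-60722643, minus strand, GRCm38) and Itgb5 (chr16:33829665-33949338, plus strand, GRCm38), the β chains of αvβ6 and αvβ5, were the members with the widest spread between replicates. Itgb6 was at 0.495, 0.525, 38.3 and 11.9 CPM in 4T1 with vehicle, a range of 77.3-fold, and at 20.2, 24.6, 34.4 and 16.1 CPM with CIX. Samples 3 and 7 were low, sample 11 exceeded every CIX sample, and the groups overlapped. The log2 fold change of 2.75 had a 95% confidence interval of 0.36 to 5.13 (adjusted p = 0.0620), and it was 0.88 by edgeR and 0.87 by DESeq2. In the fits without 1 sample the limma-voom value ranged from 1.83 to 3.90. In 67NR Itgb6 rounded to 0 counts in all 8 samples, so that 4T1 was at least 407.7-fold higher with vehicle and at least 762.2-fold with CIX, taking 3 counts over the whole group of 4 libraries as the floor. The vehicle bound rests mostly on sample 11, and without it is at least 141.1-fold. Itgb5 was at 108.1, 227, 335.2 and 100.1 CPM in 4T1 with vehicle and at 118.7 to 167.8 CPM with CIX. In 67NR it was at 148.8, 141, 182.5 and 356 CPM with vehicle and at 112.2 to 153.9 CPM with CIX. No comparison of Itgb5 passed the threshold, with log2 fold changes of -0.27 (SE 0.36) in 4T1, -0.57 (SE 0.28) in 67NR and -0.19 (SE 0.43) between the lines. The annotated transcripts of Itgb6 range from 236 to 4806 bases and those of Itgb5 from 265 to 3282, and 7.86% of the 31-base words of Itgb5 are shared with the gene Gm38317. How reads were assigned among these transcripts was not tested.

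The spread between replicates was itself shared by some members in 4T1. Samples 3 and 15 were above samples 7 and 11 for Itga2, Itga3 and Itgb3 and below them for Itgb5, and among the CIX samples 4 and 16 were above 8 and 12 for Itga2, Itga3 and Itgb3. Over the 8 samples of 4T1, after subtracting the group mean of log2(CPM + 0.5), Pearson's r was 0.958 for Itga2 with Itgb3, 0.918 for Itga2 with Itga3 and 0.854 for Itga3 with Itgb3. It was -0.862 for Itgb5 with Itgb3 and -0.840 for Itgb5 with Itga3. In 67NR the pairs with the highest values were Itga6 with Itgb1 (0.942) and Itga3 with Itga6 (0.886). These are descriptions over 8 samples of 2 groups whose values come from the same libraries, and the labels do not say which cultures were handled together, although the sample numbers run in sets of 4 with 1 sample of each group. In these sets samples 3 and 4 fall together, as do 7 and 8, 11 and 12, and 15 and 16.

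**Figure D5:**
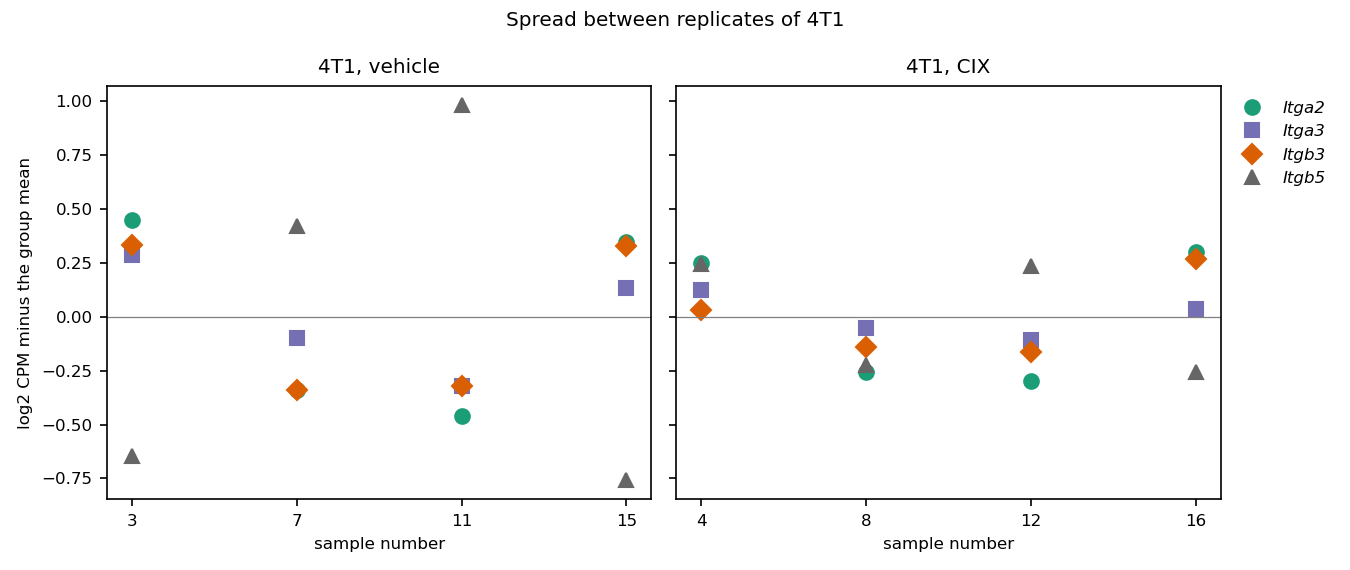
The y axis gives log2 CPM minus the group mean for Itga2, Itga3, Itgb3 and Itgb5, and the x axis the number of each 4T1 sample, vehicle on the left and CIX on the right. Itga2, Itga3 and Itgb3 lie above 0 in samples 3, 15, 4 and 16 and below 0 in samples 7, 11, 8 and 12, and Itgb5 lies on the other side in all 4 vehicle samples.

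Of 17 other integrin subunit genes, 7 passed the filter in 4T1, and DESeq2 called 2 of them with CIX (26.6% of all genes). Over all genes limma-voom called 5.35% higher and 3.99% lower, and edgeR called 8.86%. The only one of the 7 called with CIX by limma-voom or edgeR was Itgb7, a β chain of lymphocyte integrins. It was at 10.5 to 16.8 CPM with vehicle and 38.0 to 50.9 CPM with CIX in 4T1 (log2 fold change 1.63, SE 0.17, adjusted p = 1.76e-04). In 67NR it was at 26.3 to 41.9 and 54.5 to 76.6 CPM (log2 fold change 1.12, adjusted p = 0.00373), also without overlap, which missed the threshold. None of the 5 tested in 67NR was called by limma-voom or edgeR, 3 had an unadjusted p under 0.05 (32.8% of all genes) and DESeq2 called 2 (9% of all genes). Between the lines under vehicle, 5 were tested, with 1 called higher in 4T1 and 3 lower, against 20.4% and 19.6% of all genes. The filter left out 12 here. Of the 5 of these averaging at least 1 CPM in a line, 3 were higher in 4T1 and 2 in 67NR, without overlap. Itgb2, the leukocyte β chain, was higher in 4T1 (log2 fold change 2.55). Itga2b (-2.79), Itga10 (-2.57) and Itga7 (-2.22), chains of a platelet, a collagen and a laminin receptor, were lower, and Itgb7 had -1.14 with an adjusted p of 0.00101. Of the 31-base words of Itga10, 31.8% also occur in Gm42957, so that its value is uncertain. With CIX in 4T1, Itgb2 had a log2 fold change of -0.69 (adjusted p = 0.00320) and Itga1 of -1.05 (adjusted p = 0.0245), both without overlap. Itga1 (9.97 to 24.9 CPM) and Itga8 (15.4 to 35.3 CPM) were measured in 4T1 with vehicle, while neither exceeded 0.928 CPM in 67NR.

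Inside the cell, integrin tails are coupled to actin by talin, kindlin, the kinase ILK with its partners, and focal adhesion kinases. Of 33 such adaptor and kinase genes tested in 4T1, 5 were called higher with CIX and none lower, with a median log2 fold change of 0.25, against 5.35% higher, 3.99% lower and a median of -0.01 over all genes. By limma-voom 18 of the 33 had an unadjusted p under 0.05 (51.2% of all genes), and DESeq2 called 8 (26.6% of all genes). The largest were Ptk2b, a relative of focal adhesion kinase (1.95, SE 0.16), Tln2, the second talin (1.86, SE 0.16), and Fyn, a Src family kinase (1.03, SE 0.13). Tln2 was at 13.8 to 17.1 CPM with vehicle and 46.5 to 70.0 CPM with CIX in 4T1, and at 74.5 to 104.9 CPM over both groups of 67NR. Its response differed between the lines (1.91, SE 0.21, adjusted p = 1.37e-05), as did those of Ptk2b (1.48, SE 0.18) and Tns2, a tensin (1.24, SE 0.16), so that 3 of 34 were called more positive in 4T1 and none more negative, against 4.81% and 3.05% of all genes. In 67NR 1 of 32 was called, Lims2, a partner of ILK (log2 fold change 1.40, SE 0.13), against 0.182% of all genes called higher. There 18 of the 32 had an unadjusted p under 0.05 by limma-voom (32.8% of all genes), and DESeq2 called 7 (9% of all genes). In 4T1 Lims2 had a log2 fold change of 1.38 (SE 0.39, adjusted p = 0.0182), also without overlap. Between the lines 3 of 31 were higher in 4T1 and 12 lower, against 20.4% and 19.6% of all genes, with Lims2 (-3.85), Tln2 (-2.52) and Ilk (-2.48) as the largest differences among those tested. The filter left out 4 genes of this list here, among them genes with differences in the other direction. Tns4, a tensin, was at 356.2 to 465.5 CPM in 4T1 and 0.0853 to 0.954 CPM in 67NR, and Fermt1, a kindlin, at 4.95 to 27.5 and 0 to 0.0446 CPM, both chosen after their values were seen. Tgfb1i1, also left out, was higher in 67NR (2.03 to 3.46 CPM) than in 4T1 (0.0431 to 0.288 CPM).

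Of 18 genes for extracellular ligands tested between the lines, 5 were higher in 4T1 and 2 lower, against 20.4% and 19.6% of all genes, and those higher included Lama5 (log2 fold change 3.67, SE 0.17) and Lamb3 (2.92, SE 0.31). Both encode laminin chains, and laminins are the ligands of α6β4 and α3β1. The laminin chain Lamb2 went the other way, at 2.45 to 26.2 CPM in 4T1 and 78.85 to 275.6 CPM in 67NR, both with vehicle. The filter left out 9 ligand genes here, of which 2 were higher in 4T1 and 1 in 67NR without overlap among the 4 that averaged at least 1 CPM in a line. With CIX 1 of 19 was called in 4T1, the collagen IV chain Col4a2 (0.73, SE 0.10), and 1 of 20 in 67NR, Thbs1 (thrombospondin), which fell by 1.38 on the log2 scale (SE 0.12), against 5.35% of all genes called higher in 4T1 and 0.208% lower in 67NR. The response of Ccn2, a matricellular protein, was more positive in 4T1 than in 67NR (4.45, SE 0.66, 1 of 22 called against 4.81% of all genes), although it was called in neither line by itself. It was at 3.39 to 5.26 CPM with vehicle and 8.73 to 13.7 CPM with CIX in 4T1, and at 2.72 to 8.41 and 0.137 to 1.86 CPM in 67NR.

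Of the genes for hemidesmosome proteins and membrane partners, 14 were tested in 4T1 with CIX. The tetraspanin Cd81 (log2 fold change 0.96, SE 0.13) was called higher and Sdc4, a syndecan that acts with α5β1 on fibronectin, lower (-1.15, SE 0.16), against 5.35% and 3.99% of all genes. In 67NR 0 of 15 were called by limma-voom or edgeR, 8 had an unadjusted p under 0.05 (32.8% of all genes) and DESeq2 called 3 (9% of all genes). Between the lines 5 of 14 were higher in 4T1 and 4 lower, against 20.4% and 19.6% of all genes, with Cd81 (6.25), Cav1 (-3.72) and Sdc4 (1.98) as the largest among those tested. The filter left out Col17a1, a hemidesmosome collagen, which was at 0.131 to 0.906 CPM in 4T1 and 3.70 to 7.35 CPM in 67NR. Cav1, the coat protein of caveolae, responded more positively in 4T1 (1.49, SE 0.24, 1 of 15 called against 4.81% of all genes). Of 17 integrin trafficking genes limma-voom and edgeR called 0 in 4T1 with CIX, where 8 had an unadjusted p under 0.05 (51.2% of all genes) and DESeq2 called 3 (26.6% of all genes). In 67NR all of these tools called 0 of 14, with 4 at an unadjusted p under 0.05 (32.8% of all genes). Between the lines 1 of 14 was higher in 4T1 and 4 lower, against the same shares, with Arf6 (-0.96), Rab11fip5 (-0.88) and Rab7 (-0.87) as the largest among those tested. The filter left out 4 trafficking genes here, and the 3 of them that averaged at least 1 CPM in a line were all higher in 4T1 without overlap. They were Acap1 (73.9 to 112.5 against 0.341 to 0.716 CPM), Rab11fip1 (65.2 to 91.6 against 0.268 to 0.953 CPM) and Rab25 (7.91 to 11.7 against 0 to 0.0795 CPM). The direction of this list between the lines therefore depends on the filter.

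In 4T1 with CIX 2 of 4 mesenchymal markers tested were called higher, Vim (log2 fold change 1.24) and Twist1 (0.92), and of 10 epithelial markers Esrp1 (0.76) was higher and Epcam (-0.78) lower, against 5.35% higher and 3.99% lower of all genes. Among immune cell markers, Cd68, also a lysosomal protein, was the one gene that passed the filter and was called in 4T1 (1.25) and in 67NR (2.08), while Adgre1 was at 0 throughout. Of 8 mesenchymal markers tested in 67NR with CIX, limma-voom and edgeR called 0, 5 had an unadjusted p under 0.05 (32.8% of all genes) and DESeq2 called 3 (9% of all genes). Of 8 mesenchymal markers in the interaction fit, the responses of 2 were called more positive in 4T1, Twist1 (1.04) and Vim (0.66). That of Pdgfra (-0.78) was called more negative, against 4.81% more positive and 3.05% more negative of all genes. Between the lines 2 epithelial markers could be tested, Krt18 and Krt8, and were called higher in 4T1, as was Cd68. Of 4 mesenchymal markers tested, Twist1, Vim and Pdgfra were called lower, against 20.4% higher and 19.6% lower of all genes. The filter left out 10 epithelial and 6 mesenchymal markers here. Of those averaging at least 1 CPM in a line, all 8 epithelial were higher in 4T1 and all 4 mesenchymal in 67NR, without overlap. The 1 endothelial marker tested with CIX in 67NR was not called, with an unadjusted p under 0.05 by each of the tools. The summed mesenchymal level was 1160.7 to 1266.5 CPM in 4T1 with vehicle and 2558.1 to 3036.1 CPM with CIX, and 5502.1 to 6006.7 and 8141.2 to 9262.0 CPM in 67NR. The part of these marker differences in the integrin results was not tested.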

How the data were processed

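RNA of 4T1 and 67NR cells was sequenced by the authors from stranded poly-A libraries (1 flowcell, single-end), quantified with Salmon (version 0.12 in the submitters' processing notes) on Ensembl GRCm38 and summarised to genes with tximport, and the deposited values are estimated counts per gene without normalization (the same notes name the human build GRCh38, although the gene identifiers are mouse). Only 0.483% of values above 0 are whole within 0.001. The scaling is not given in the sources used here. In 4436 low genes with a single transcript the smallest value had a median of 0.975, and of 0.950 to 0.977 in classes of transcript length, so a read is worth about 1 count, and values were taken to grow with length.

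The estimated counts were rounded for the tests and scaled by TMM to CPM. Approximate TPM was computed from unrounded values and the mean transcript length (GENCODE M21, GRCm38, which held 32832 of 33072 genes). Groups were taken from the labels, and no column was left without a sample. Replicates are biological according to the study, and each pair within a group differed by a chi-square of at least 18.1 per gene.

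The main test was limma-voom (limma 3.58.1, edgeR 4.0.16, R 4.3.3) over the samples of each comparison, or over all 16 with an interaction term for the difference between responses, where a gene was kept if it passed the filter in either line. Isoform assignment and shared sequence can move single values. The fits were tested on simulated data. The members and the other gene lists were chosen with earlier results of these data known. All 10 members are named, other integrin subunits where they passed the filter, and of each other list up to 3 called genes with the largest change whose groups did not overlap; markers are named for the check of the lines. One gene that this rule names is not reported here. Alternatives were edgeR's quasi-likelihood test, DESeq2 1.42.0, DESeq2 size factors, no scaling, no filter, a common fit of 16 samples, a threshold of 0.05, leaving out each sample, a block for sets of consecutive sample numbers (chosen after seeing the data) and, for TPM, the longest transcript.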

Additional observations from a re-analysis of the deposited data

Results flagged for a closer look

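The difference between the responses of Itgb4 to CIX in 4T1 and 67NR was 1.71 on the log2 scale, with 4 of 4 CIX samples above vehicle in 4T1 and 4 of 4 below it in 67NR. It was singled out because the interaction term passed the threshold. In 3 of 38 groups of 4 samples, 1 sample lay apart from the others beyond Dixon's critical value, where about 1.9 groups would be expected by chance, since chance singles out about 1 group in 20. Itga5 was at 183 CPM in 67NR with CIX in sample 2, against 247.5 to 257.2 CPM in the other samples. Itgav was at 193.5 CPM in 67NR with vehicle in sample 13, against 177.1 to 178.8 CPM. Itga2 was at 0.0795 CPM, or 2 counts, in 67NR with vehicle in sample 9 and at 0 in the others.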

How the results depend on the processing

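Itgb4 stayed the 1 member called for the difference between responses under all alternatives run, and Itga5 in 4T1 was called in 7 of 8 fits without 1 sample, the exception being vehicle sample 7. Members called with CIX in 4T1 numbered 1, and 3 by DESeq2, 2 in the common fit, 3 at a threshold of 0.05 and 0 to 1 without 1 sample. In 67NR they numbered 0 of 7 tested, and 2 by DESeq2, 1 of 10 in the common fit (Itga5), 3 at 0.05 and 0 to 1. Between the lines they numbered 4 of 7 tested, and 5 of 7 by DESeq2 and 6 of 7 at 0.05. They were 6 of 10 without a filter and in the common fit, and 4 to 6 of 7 to 9 without 1 sample. All genes called in 4T1 numbered 1089, and 1033 by edgeR, 3096 by DESeq2, 2720 in the common fit, 4982 at 0.05 and 287 to 1051 without 1 sample. In 67NR they numbered 45, and 46 by edgeR, 1040 by DESeq2, 145 in the common fit, 2054 at 0.05 and 0 to 70 without 1 sample. Between the lines they numbered 4420 of 11040, and 5741 (52%) by DESeq2 and 7442 at 0.05. They were 6461 of 22724 without a filter, 6561 of 12605 in the common fit and 4098 to 4909 without 1 sample. For the difference between responses they numbered 991, with 1980 by DESeq2, 3704 at 0.05 and 650 to 1066. Direction turned only for values that were not called. Itgb1 in 4T1 was 0.0433 without a filter and -0.0531 to 0.0244 without 1 sample, Itgb5 was -0.529 to 0.0518 in 4T1 and -0.474 to 0.102 between the lines. The difference between responses of Itga5 was -0.00202 by edgeR, -0.00198 by DESeq2, -0.0330 without scaling and -0.105 to 0.0763 without 1 sample. That of Itgav was -0.0225 without scaling and -0.0498 to 0.119, that of Itgb1 -0.0129 and -0.000819 to 0.0802, and that of Itga2, which has no measurable response in 67NR, -0.182 to 0.658. Of the single members' log2 fold changes under alternatives that kept all samples, 240 kept direction and side of the threshold, 15 newly passed it, 1 lost it and 6 turned. Itga2 and Itgb3 were the members added between the lines without a filter and in the common fit. The filter of the main fit had left them out, and these fits tested 10 members in place of 7. Without 1 vehicle sample of 67NR, 9 members passed the filter and the same genes were added. The cause of the other moves was not tested. No replicate number is shared between groups, but the numbers run in sets of 4 with 1 sample per group, and a block for these sets was added after seeing the data. Deviations from the group means correlated within sets at 0.0435 to 0.36 in 4T1, -0.0667 to 0.12 in 67NR and -0.242 to 0.224 between the lines, and 5, 4 and 2 of 8 samples correlated best with their own set, so the sets were not taken as pairs. With the replicate block, limma-voom called 2 members in 4T1 (Itga5 and Itgb3, adjusted p = 9.67e-04), 0 in 67NR, 3 between the lines (Itga3 missed, adjusted p = 0.00107) and 1 for the difference between responses, and 1142, 0, 3008 and 1092 of all genes. For Itga2 and Itga3 in 4T1 the blocked adjusted p was 0.00271 and 0.0129. The common fit does not apply to the difference between responses, which already uses all 16 samples.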

Other observations

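Itgb2, the β chain of the leukocyte integrins, was at 177.6 to 229.3 CPM in 4T1 with vehicle, and its α chains Itgal, Itgam, Itgax and Itgad did not exceed 0.175 CPM there. In 67NR with vehicle Itgb2 was at 28.1 to 40.3 CPM and Itgal at 0.993 to 2.32 CPM. Itgb7 was at 38.0 to 50.9 CPM in 4T1 with CIX, where its partners were at 0.574 to 1.38 CPM (Itga4) and 0.215 to 0.344 CPM (Itgae). Ptprc, the common leukocyte antigen, was at 0.950 to 1.44 CPM in 4T1 with vehicle and Csf1r at 0.0412 to 0.906 CPM. Of the 31-base words of Itgam 68.1% and of Itgad 17.5% also occur in other genes, so that their values are uncertain.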
